A study of Mus musculus with 23 samples.

Results

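The comparison described here is that of an antibody against the glucagon receptor (GCGR) with a control antibody in the liver of male C57BL/6J mice kept on regular chow, a mouse strain in common use. It rests on 11 of the 23 liver RNA-seq libraries of the series, 5 with control antibody (libraries 1 to 5) and 6 with GCGR antibody (libraries 6 to 11), and on the 11939 of 24475 genes that reached at least 0.5 RPKM in at least 5 of the 23 libraries. RPKM is the read number of a gene scaled to its length and to the size of the library. All of these mice had eaten chow for 4 months and were treated for 3 weeks with an antibody dose of 10 mg/kg. REGN1193 is the antibody that blocks GCGR. The other antibody is labelled REGN496. The design text speaks of an isotype control antibody and gives it no code, so REGN496 is read as that control. The other 12 libraries come from mice under the same antibodies on a high-fat diet (HFD), 6 of each, and serve to set the chow effect beside that on HFD. The labels tie the series to the serum transaminases ALT and AST. They name no separate mouse for each library, so each p-value speaks of the spread over these libraries, which may in part be technical.

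Glucagon is the pancreatic hormone of fasting. It acts mainly on hepatocytes, where its receptor GCGR couples through a stimulatory G protein to adenylyl cyclase, cyclic AMP (cAMP) and protein kinase A, with CREB among the kinase's targets. In the liver it promotes glycogen breakdown, gluconeogenesis, amino acid uptake and breakdown, and disposal of amino acid nitrogen through the urea cycle. Blocking the receptor is known to raise amino acids in blood.

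The 11 libraries had relative depths of 0.895 to 1.19 around the middle library, estimated from the steps between low RPKM values, of which 78.3% lay within 0.05 of a whole multiple. Total read numbers were not derived, so no counting intervals are given. The correlation between any 2 of the 11 libraries lay between 0.9845 and 0.9938 across genes. The median gene had an SD of 0.12 (control) and 0.13 (GCGR antibody) on the log2 scale. The first principal component of the 11 libraries, with 22.6% of the variance, held the control libraries at -15.9 to -3.45 and the GCGR antibody libraries at -1.50 to 14.8. Library 11, of GCGR antibody, lay nearest to the controls. It also stood apart in skeletal muscle transcripts: the summed RPKM of 6 muscle markers was 114.5 there and 1.38 to 2.99 in the other 10 libraries, with the muscle actin Acta1 at 53.0 and muscle creatine kinase Ckm at 21.8 RPKM. The total counts are therefore also given without it. Leaving it out added 1 fallen gene to 6 of the 39 gene lists used below and changed no count in the others: Cps1 in the urea cycle, periportal and hepatocyte lists, Fads1 in that of fatty acid synthesis, and Shmt2 in those of serine breakdown and of ATF4. The hepatocyte markers were present as the tissue label says, with Alb at 27610 to 39490 RPKM. Of 12 hepatocyte markers 0 was called between the groups with limma. Still, 9 of the 12 had a fold change below 0 and 4 were lower at an unadjusted p under 0.05. Of all 11939 tested genes 4411 and 450 were so.

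Genes were tested as log2(RPKM + 1) with limma, and a gene is called higher or lower, or said to have risen or fallen, at a Benjamini-Hochberg adjusted p under 0.05 over the 11939 genes. With GCGR antibody on chow 66 genes fell (0.553% of those tested) and 47 rose (0.394%), 113 in all (0.946%). Fold changes are log2 differences of RPKM + 1, given ± SE, a scale that understates changes of low genes. The median over all tested genes was 0.03, and 838 genes were higher and 450 lower at an unadjusted p under 0.05. Among the genes called, 11 fell and 9 rose by at least 2-fold, while 26 and 23 moved by under 0.5 on the log2 scale. The groups did not overlap in 54 of the 66 fallen genes and in 35 of the 47 risen ones; over all tested genes such a gap was found in 119 genes in the lower direction (0.997%) and 179 in the higher (1.5%). Without library 11 the counts were 74 and 59. When every library was scaled to an equal summed RPKM, 76 fell and 31 rose, so that the share of higher genes among the calls went from 41.6% to 29.0%. Many calls depended on single libraries: only 47 of the 113 genes, 33 lower and 14 higher, were called in each of the 11 fits that left out 1 library. The others were not all near the threshold, as Dpyd (adjusted p = 0.0118) and Mup20 (0.0139) were among them. Just inside the threshold lay Tacc1 (adjusted p = 0.0484), and just outside it Tm6sf2 (0.0502).

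**Figure D1:**
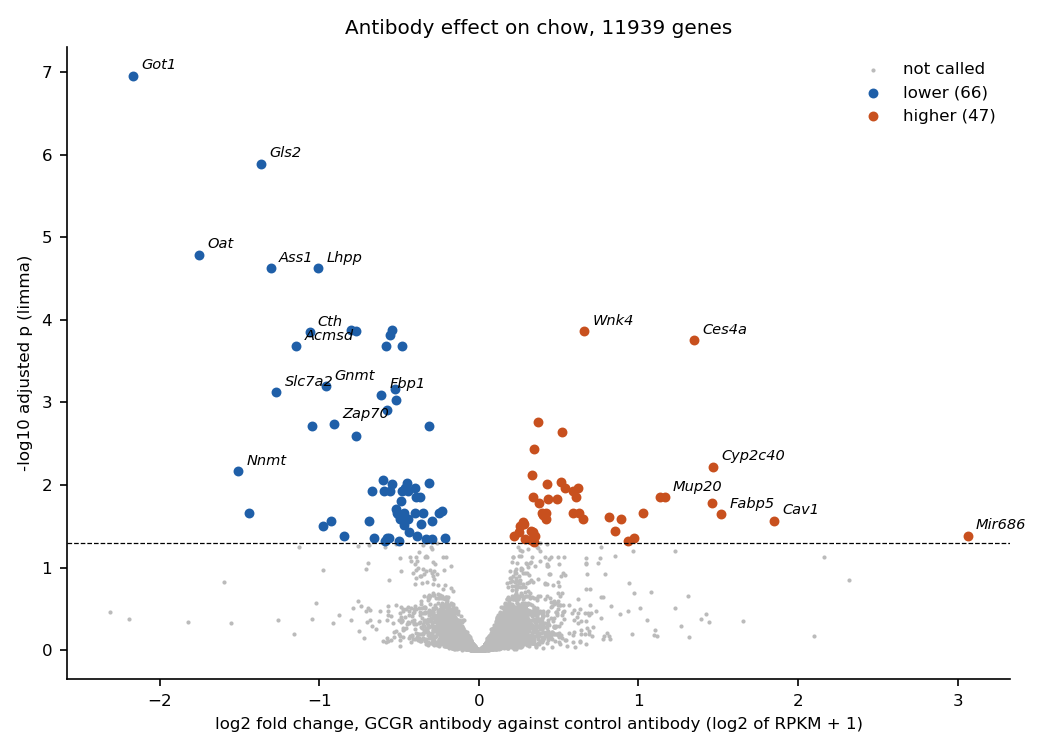
Log2 fold change of each of 11939 genes with GCGR antibody against control antibody on chow (horizontal axis) against the negative log10 of limma's adjusted p (vertical axis); the dashed line marks 0.05, blue points are the 66 genes that fell and orange points the 47 that rose. Got1 lies farthest up, at a fold change of -2.16 and an adjusted p of 1.11e-07, and the genes that rose have larger adjusted p values, the smallest being that of Wnk4 at 1.36e-04.

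The fallen genes were led by enzymes that break down amino acids. Over 7 lists of such enzymes, which hold 113 tested genes (a different set from the 113 genes called), 21 fell and 0 rose. Their median log2 fold change was -0.17 against 0.03 over all tested genes, and 88 of them lay below 0, as did 37.0% of all tested genes (49.1% after median-ratio scaling). On leaving out single libraries 17 to 23 fell, with 23 without library 11, and after the 2 other scalings 24 and 22 fell. These lists and their members were drawn up with earlier results of the same samples known, so the counts describe them and do not test them.

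Aminotransferases pass the amino group of an amino acid to a keto acid. Of 15 tested, Got1, Oat, Agxt and Agxt2 fell and 0 rose, and the median of the list was -0.27. Got1, the cytosolic aspartate aminotransferase and the cytosolic source of AST activity (gene ID 14718, chromosome 19, 43499752 to 43524605 of GRCm38), stood at 69.4, 55.8, 95.7, 72.6 and 92.2 RPKM in control libraries 1 to 5 and at 10.98 to 19.3 (median 17.04) in the 6 GCGR antibody libraries. The lowest control was nearly 3-fold above the highest GCGR antibody library, and the fold change was -2.16 ± 0.17 (adjusted p = 1.11e-07). Oat, the mitochondrial ornithine aminotransferase (chromosome 7, 132557475 to 132576398), was at 339, 318, 419, 399.7 and 421 RPKM in the controls and at 78.97 to 148 (median 109) with GCGR antibody (-1.75 ± 0.19, adjusted p = 1.62e-05). Again no library of 1 group reached the other. Agxt, the peroxisomal enzyme that turns glyoxylate into glycine, was at 145, 138, 142, 139 and 140.4 RPKM against 70.7 to 105 (median 95.03) (-0.67 ± 0.13, adjusted p = 0.0118). The 5 controls lay close together, while GCGR antibody libraries 8 and 9 were the lowest of their group. Agxt2, a mitochondrial aminotransferase of glyoxylate and beta-amino acids, fell by less (-0.39 ± 0.08, adjusted p = 0.0139), with 48.7 to 64.3 RPKM in the controls and 38.5 to 46.7 with GCGR antibody, a call lost without library 5 (adjusted p of 0.0642).

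The other enzymes of AST and ALT activity did not pass the test. Got2, the mitochondrial aspartate aminotransferase, was at 210.5, 212, 183, 212 and 205 RPKM in the controls and at 192 to 212 (median 202) with GCGR antibody (-0.01 ± 0.05, adjusted p = 0.959), so that the groups covered the same range. Gpt, the cytosolic alanine aminotransferase, was at 135, 135, 119, 152 and 189 RPKM against 88.7 to 121 (median 115) (-0.40 ± 0.11, adjusted p = 0.0897). The highest GCGR antibody library only just passed the lowest control. Gpt2, its mitochondrial counterpart, was at 65.7 to 126 RPKM against 63.7 to 94.5 (-0.19 ± 0.16, adjusted p = 0.7302), with library 5 far above the other controls.

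The 250 bases before the annotated start of transcription are shown for 4 of the 5 genes with the largest decreases that have an entry in the promoter table, with the start as that table gives it, read from RefSeq on GRCm38.p6, 5′ to 3′ on the gene's own strand. They show what DNA lies in front of the genes that fell together. Capitals mark matches, on either strand, to 4 motifs: TGACG, the short form of the cAMP response element, which CREB can bind, the forkhead core TGTTTAC, the TATA box TATAAA and the CCAAT box CCAAT. The CCAAT box was added after these sequences had been seen. In Slco1a4 the annotated gene reaches past that start, so that 64 bases of its window lie inside the gene. The promoters of Got1 (chr19:43524606-43524855), Oat (chr7:132576399-132576648) and Slco1a4 (chr6:141856221-141856470) lie on the minus strand, that of Ass1 (chr2:31470020-31470269) on the plus strand.
Got1: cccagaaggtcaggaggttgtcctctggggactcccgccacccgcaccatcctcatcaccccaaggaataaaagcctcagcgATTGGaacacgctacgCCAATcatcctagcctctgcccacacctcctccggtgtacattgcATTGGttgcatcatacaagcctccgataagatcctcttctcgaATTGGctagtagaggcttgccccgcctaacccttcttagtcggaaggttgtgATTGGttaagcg
Oat: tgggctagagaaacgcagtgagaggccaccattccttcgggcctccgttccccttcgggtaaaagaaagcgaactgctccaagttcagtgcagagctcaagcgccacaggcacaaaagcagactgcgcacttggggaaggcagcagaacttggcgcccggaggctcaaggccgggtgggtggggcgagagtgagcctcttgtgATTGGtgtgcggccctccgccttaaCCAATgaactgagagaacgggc
Slco1a4: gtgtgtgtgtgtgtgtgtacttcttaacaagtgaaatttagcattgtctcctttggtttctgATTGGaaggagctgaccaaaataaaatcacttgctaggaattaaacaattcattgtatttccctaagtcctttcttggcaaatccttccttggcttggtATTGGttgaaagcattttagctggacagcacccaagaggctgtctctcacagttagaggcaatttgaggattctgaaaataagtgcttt
Ass1: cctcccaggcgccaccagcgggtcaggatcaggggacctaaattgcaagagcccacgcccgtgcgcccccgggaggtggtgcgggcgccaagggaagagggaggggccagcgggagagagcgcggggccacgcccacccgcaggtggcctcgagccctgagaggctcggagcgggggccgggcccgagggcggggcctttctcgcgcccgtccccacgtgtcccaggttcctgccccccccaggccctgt

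The Got1 window holds 5 CCAAT boxes, 4 of them on the opposite strand (ATTGG), at 168, 152, 107, 64 and 12 bases before the start. The Oat and Slco1a4 windows hold 2 each, and the Ass1 window holds no match to these motifs. The CCAAT box was the only one of the 4 motifs found in these 4 windows. Of the 66 fallen genes 49 had a window, and of the 47 risen ones 39. The short cAMP response element was found in 12.2% of the fallen and 15.4% of the risen genes with a window, against 27.2% of all 9447 tested genes that have one. The full element TGACGTCA, which contains the short one, was found in 2.04%, 2.56% and 2.75%. The forkhead core was found in 0 of the fallen and 0 of the risen genes and in 2.31% of all, the TATA box in 10.2%, 7.69% and 6.90%, and the CCAAT box in 49.0%, 28.2% and 37.1%. These are matches of letters in short windows and say nothing of binding.

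Glutamine releases ammonia through Gls2, the liver glutaminase, which feeds the urea cycle in periportal hepatocytes. Gls2 (chromosome 10, 128194635 to 128210004) was at 129.9, 139, 139.8, 139.6 and 179 RPKM in the controls and at 45.7 to 61.5 (median 59.4) with GCGR antibody (-1.36 ± 0.13, adjusted p = 1.29e-06). Library 5 lay above the other 4 controls, which differed little, and every control was over 2-fold above every GCGR antibody library. Of the 12 tested genes of glutamine, glutamate and proline metabolism only Aldh4a1 fell beside it. Aldh4a1, which completes proline breakdown to glutamate, was at 109 to 131 RPKM against 83.3 to 108 (-0.40 ± 0.09, adjusted p = 0.0217), and this call was lost without any 1 of libraries 2, 4, 5, 6, 7, 8 and 9 (adjusted p up to 0.0757).

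The urea cycle turns ammonia and the nitrogen of aspartate into urea. Of 10 tested genes of the cycle and its mitochondrial carriers 5 fell and 0 rose, 9 lay below 0, and the median was -0.46, the lowest of the 27 pathway lists. The summed level of the list was 3602 to 5051 RPKM in the controls and 1997 to 2515 with GCGR antibody. Ass1, which joins citrulline to aspartate (chromosome 2, 31470270 to 31520670), was at 1601, 1820, 1612, 1856 and 2500.5 RPKM in the controls and at 539 to 888 (median 812) with GCGR antibody (-1.30 ± 0.15, adjusted p = 2.39e-05). Library 5 was again the highest control, library 9 was the lowest of its group, and the groups were far apart. Asl, which splits argininosuccinate, was at 267, 255, 252, 238 and 324 RPKM against 159.8 to 192 (median 179) (-0.58 ± 0.09, adjusted p = 0.00124). Arg1, the arginase that releases urea, was at 538, 614, 578, 576 and 753 RPKM against 373 to 451 (median 441) (-0.52 ± 0.08, adjusted p = 9.33e-04). In both the groups did not overlap, with a narrower gap than in Ass1. Slc25a15, the carrier of ornithine and citrulline, changed by -0.45 ± 0.09 (adjusted p = 0.00956), and Slc25a22, a mitochondrial glutamate carrier, by -0.48 ± 0.10 (0.0118), from 53.9 to 74.8 to 35.9 to 47.7 RPKM. Cps1, the enzyme of the first step, was at 743, 757, 806, 804 and 939 RPKM in the controls and at 439 to 576 (median 509) with GCGR antibody. Its groups did not overlap either, but its fold change of -0.69 ± 0.17 did not pass (adjusted p = 0.0528). Cps1 passed without library 11 (0.0492), with the stricter filter (0.0487), with median-ratio scaling (0.0475) and with the chow libraries fitted alone (0.00161).

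Methionine is activated to S-adenosylmethionine, used for methylation and carried through transsulfuration to cysteine. Of 18 tested genes of these steps 4 fell and 0 rose, with a median of -0.19, and the 4 lie along that route. Mat1a, which makes S-adenosylmethionine in hepatocytes (chromosome 14, 41105012 to 41124428), was at 628, 584, 766, 693 and 802 RPKM in the controls and at 333 to 473 (median 418) with GCGR antibody (-0.77 ± 0.10, adjusted p = 1.36e-04). Gnmt, which uses it to methylate glycine, was at 1191, 1126, 1223, 1242 and 1483 RPKM against 549 to 720 (median 680.1) (-0.95 ± 0.14, adjusted p = 6.32e-04). Neither gene overlapped between the groups. Cbs, which starts transsulfuration, was at 195, 189.8, 195, 176 and 184 RPKM against 127 to 149 (median 138) (-0.44 ± 0.09, adjusted p = 0.0118). Cth, which releases cysteine from cystathionine (chromosome 3, 157894248 to 157925081), was at 250.5, 244, 296, 273 and 344 RPKM against 112 to 157 (median 134) (-1.06 ± 0.14, adjusted p = 1.41e-04). All 4 were called in every fit that left out 1 library.

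In the breakdown of tryptophan, phenylalanine and tyrosine Acmsd, Hgd, Hpd and Qdpr fell and the other 14 of 18 tested genes did not pass. All 18 had a fold change below 0, as did 37.0% of all tested genes (49.1% after median-ratio scaling), and the median of the list was -0.28. The groups did not overlap in 10 of the 18, all in the lower direction, against 0.997% of all tested genes. Acmsd, which sends a tryptophan intermediate to full oxidation and away from NAD synthesis (chromosome 1, 127729413 to 127767564), was at 6.95, 8.37, 10.1, 7.55 and 10.3 RPKM in the controls and at 2.32 to 4.58 (median 3.44) with GCGR antibody (-1.14 ± 0.16, adjusted p = 2.08e-04). Hgd, which opens the ring of homogentisate in tyrosine breakdown, was at 276, 281, 279, 263 and 302 RPKM against 175 to 203 (median 193) (-0.55 ± 0.07, adjusted p = 1.55e-04). Its libraries were tight in both groups and well apart. Hpd, the enzyme before Hgd, changed by -0.50 ± 0.12 (adjusted p = 0.0476), and Qdpr, which regenerates the cofactor of phenylalanine hydroxylase, by -0.35 ± 0.07 (0.0215). These 2 calls were fragile, Hpd being lost without any 1 of libraries 1, 2, 3, 4, 5, 6, 8, 9 and 10 or with no filter on low values or median-ratio scaling (adjusted p up to 0.135) and Qdpr without any 1 of libraries 2, 5, 8 and 9 (adjusted p up to 0.0877).

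In the remaining lists of amino acid breakdown few genes passed. Of 19 genes of serine, glycine, threonine and histidine breakdown only Sdsl, a serine dehydratase-like enzyme, fell, from 6.21, 8.12, 6.27, 5.81 and 6.72 RPKM in the controls to 2.999 to 4.75 (median 3.25) (-0.77 ± 0.13, adjusted p = 0.00255), and 16 lay below 0. Its better known relative Sds, the serine dehydratase, was at 51.7, 82.6, 96.7, 76.6 and 123 RPKM in the controls and at 23.2 to 48.3 (median 40.3) with GCGR antibody and did not pass (-1.13 ± 0.28, adjusted p = 0.0566), though it did without library 1 (0.0344), with median-ratio scaling (0.0418) and with the chow libraries fitted alone (0.0215). The groups did not overlap in either gene. Of 24 genes of branched-chain amino acid and lysine breakdown only Aass, which starts lysine breakdown, fell (-0.60 ± 0.11, adjusted p = 0.008799), from 78.7 to 99.8 to 50.1 to 64.6 RPKM. The median of that list was -0.10. Over the 21 fallen genes of the 7 lists, library 5 was the highest control in 15 and library 9 the lowest GCGR antibody library in 14. The other ends were spread over more libraries. The lowest control was library 1 in 7, library 2 in 7 and library 4 in 5. The highest GCGR antibody library was library 11 in 7 and library 7 in 6.

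**Figure D2:**
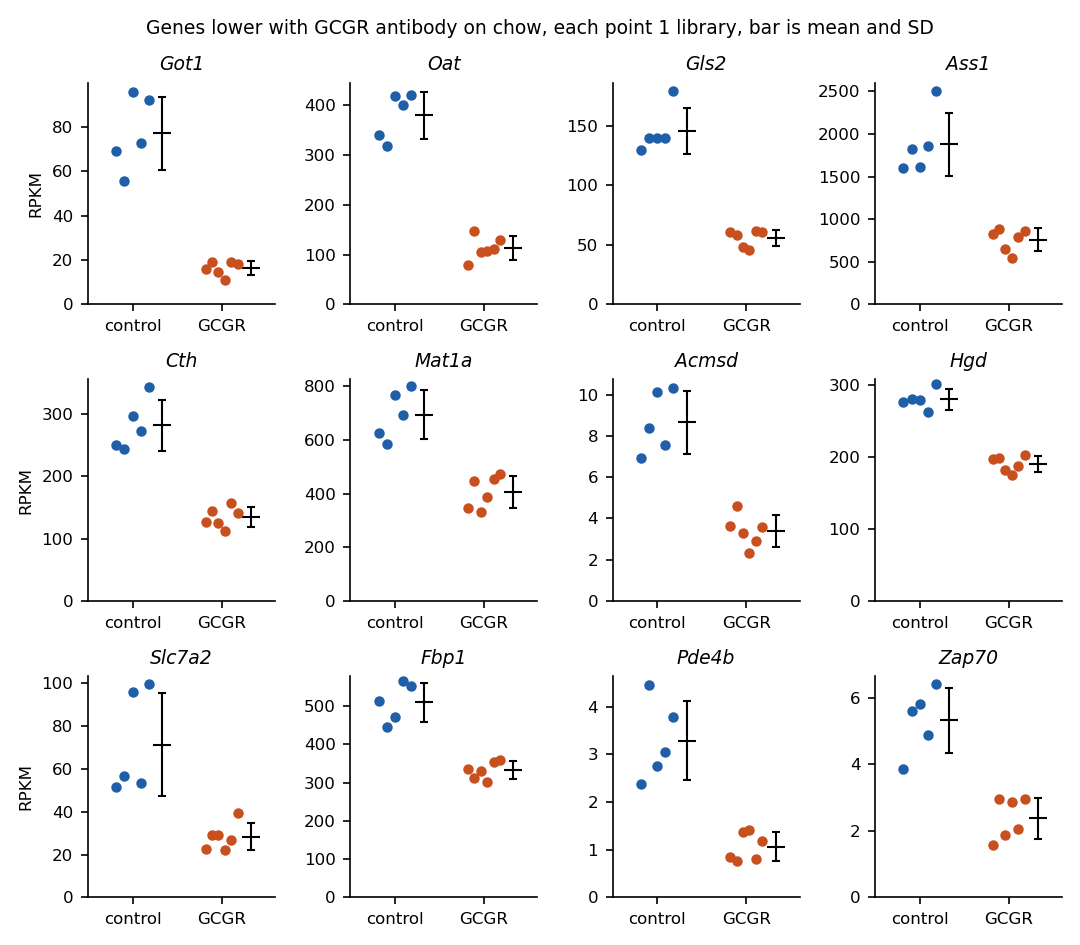
RPKM (vertical axis, from 0) of 12 genes that fell, in each control (blue) and GCGR antibody (orange) library on chow; the bar beside each group is the mean ± SD (n = 5 and 6). In each of these genes the lowest control library lies above the highest GCGR antibody library; Got1 averaged 77.1 ± 16.6 and 16.4 ± 3.16 RPKM and Zap70 5.31 ± 0.978 and 2.37 ± 0.613.

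Amino acid transporters moved both ways. Of 27 tested 3 fell and 2 rose, with a median of -0.03. Slc7a2, which takes up arginine, lysine and ornithine (chromosome 8, 40862341 to 40922070), was at 51.5, 56.5, 95.5, 53.4 and 99.3 RPKM in the controls and at 22.2 to 39.6 (median 28.00) with GCGR antibody (-1.27 ± 0.19, adjusted p = 7.53e-04). Controls 3 and 5 were well above the other 3, and all 5 lay above the highest GCGR antibody library. Slc38a3, which carries glutamine, changed by -0.66 ± 0.16 (adjusted p = 0.0435), from 429 to 666 to 269 to 467 RPKM, with library 11 alone reaching into the control range. Slc38a4, a carrier of small neutral amino acids, changed by -0.49 ± 0.11 (0.0255). The Slc38a3 call was lost without any 1 of libraries 2, 3, 4, 5, 6, 7, 8, 9 and 10 or with no filter on low values (adjusted p up to 0.164), and that of Slc38a4 without any 1 of libraries 3, 5, 6, 7, 8 and 9 or with the chow libraries fitted alone (adjusted p up to 0.105). Slc6a9, the glycine transporter GlyT1, rose from 8.89, 10.2, 10.5, 8.72 and 9.03 RPKM to 11.1 to 17.8 (median 13.9) (0.51 ± 0.10, adjusted p = 0.00928) with no overlap between the groups. Slc7a7, which exports basic amino acids, rose at a low level (0.816 to 1.47 against 1.61 to 2.48 RPKM, 0.40 ± 0.09, adjusted p = 0.0228), a call lost without any 1 of libraries 2, 4, 6 and 8 or with the chow libraries fitted alone (adjusted p up to 0.0824).

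In glucose metabolism 2 of 20 tested genes of gluconeogenesis and glucose output fell, Got1 and Fbp1, and the median was -0.07. Fbp1, the fructose-bisphosphatase of gluconeogenesis (chromosome 13, 62864753 to 62888298), was at 513, 445, 472, 565 and 552 RPKM in the controls and at 301 to 359.8 (median 333) with GCGR antibody (-0.61 ± 0.09, adjusted p = 8.06e-04), without overlap. Pck1, which makes phosphoenolpyruvate from oxaloacetate and is a well known glucagon target, was at 497, 445, 973, 467 and 721 RPKM against 124 to 677 (median 321) and did not pass (-0.80 ± 0.36, adjusted p = 0.434). G6pc, the glucose-6-phosphatase that releases glucose, was at 192, 127, 158, 177 and 133 RPKM against 55.8 to 175 (median 84.6) (-0.70 ± 0.33, adjusted p = 0.453). In both genes the groups overlapped and the GCGR antibody libraries spread over a several-fold range. Ppargc1a, a coactivator of gluconeogenic genes, was low in all libraries (0.886 to 1.67 against 0.714 to 1.22 RPKM, adjusted p = 0.459). Of 22 glycolysis and glycogen genes only Gckr fell, by 0.29 on the log2 scale (adjusted p = 0.0446), and this call was lost without any 1 of libraries 1, 2, 3, 4, 5, 6, 7, 8, 9 and 10 or with no filter on low values or equal summed RPKM (adjusted p up to 0.121).

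The receptor and its signalling chain changed little at the transcript level. Gcgr (chromosome 11, 120529185 to 120538989) was at 117, 106, 102, 102 and 105 RPKM in the controls and at 107 to 123 (median 111) with GCGR antibody (0.08 ± 0.05, adjusted p = 0.623), and an antibody against the protein need not alter these values. Of 25 tested genes of the receptor and cAMP signalling only Pde4b fell. Pde4b, a phosphodiesterase that degrades cAMP (chromosome 4, 102087332 to 102607275), was at 2.39, 4.46, 2.75, 3.06 and 3.78 RPKM in the controls and at 0.757 to 1.41 (median 1.02) with GCGR antibody (-1.05 ± 0.17, adjusted p = 0.00191). The groups did not overlap, at a low level. Crem, a cAMP-inducible transcription factor, was at 7.79 to 10.1 RPKM against 5.57 to 7.91 (-0.34 ± 0.10, adjusted p = 0.118). Kiss1, which encodes kisspeptin, a peptide reported as a hepatic product under glucagon, was at 0.121 to 0.577 RPKM in the controls and at 0 to 0.249 with GCGR antibody (adjusted p = 0.373).

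Genes of lipid metabolism showed few calls. Of 32 tested genes of fatty acid and triglyceride synthesis Fads2 and Acly fell, and the median was -0.08. Fads2, a desaturase of polyunsaturated fatty acids, was at 166, 142, 138, 148 and 142 RPKM in the controls and at 85.8 to 128 (median 95.05) with GCGR antibody (-0.56 ± 0.13, adjusted p = 0.0435), while its partner Fads1 lay just outside the threshold (-0.52 ± 0.13, adjusted p = 0.05100). Fads1 passed without library 11 (0.0256), with the stricter filter, with the filter on the chow libraries, with both other scalings and with the chow libraries fitted alone (adjusted p of 0.0232 to 0.04895). Acly, which makes cytosolic acetyl-CoA, was at 65.5, 56.6, 50.8, 67.6 and 84.4 RPKM against 36.01 to 53.8 (median 39.5) (-0.59 ± 0.14, adjusted p = 0.0479). The Fads2 call was lost without any 1 of libraries 1, 2, 3, 4, 5, 6, 7, 8, 9 and 10 or with no filter on low values (adjusted p up to 0.122), and that of Acly without any 1 of libraries 1, 2, 4, 5, 6, 7, 8 and 9 or with no filter on low values or equal summed RPKM or the chow libraries fitted alone (adjusted p up to 0.183). Of 20 cholesterol synthesis and uptake genes 0 was called with limma and 2 were lower at an unadjusted p under 0.05. Yet 20 of 20 lay below 0, against 37.0% of all tested genes, with a median of -0.19. All 20 also lay below 0 after both other scalings (19 of 20 without library 11). Their summed level was 1400 to 2715 RPKM in the controls and 1238 to 1697 with GCGR antibody. Of 28 genes of fatty acid oxidation, ketone bodies and PPARA targets 0 was called (1 higher at an unadjusted p under 0.05), with a median of 0.02.

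Among 20 bile acid genes only Slco1a4 fell. Slco1a4, an uptake carrier of bile acids and other organic anions (chromosome 6, 141805438 to 141856284), was at 18.2, 17.5, 23.1, 22.2 and 25.4 RPKM in the controls and at 5.35 to 11.7 (median 6.22) with GCGR antibody (-1.44 ± 0.31, adjusted p = 0.0215). The groups did not overlap, but the call was lost without any 1 of libraries 3, 4, 5, 8, 9 and 10 (adjusted p up to 0.0747). Cyp7a1, the rate-limiting enzyme of bile acid synthesis, varied widely within both groups (13.4 to 62.8 against 8.43 to 73.1 RPKM, adjusted p = 0.713). Of 68 cytochrome P450 and conjugation genes 2 rose and 1 fell, with a median of 0.01. Cyp2c40, a P450 of the Cyp2c cluster whose members are near copies of each other and may share reads, was at 2.03, 3.34, 2.44, 2.11 and 0.303 RPKM in the controls and at 3.69 to 9.697 (median 6.94) with GCGR antibody (1.47 ± 0.27, adjusted p = 0.00598). Library 5 was by far the lowest control, and a pseudocount of 0.1 ended the call (adjusted p = 0.308). Ces4a, a carboxylesterase, was at 0.622, 0.9400, 0.4999, 0.647 and 0.4698 RPKM against 1.84 to 5.34 (median 3.11) (1.35 ± 0.18, adjusted p = 1.78e-04). Every GCGR antibody library lay above every control, though libraries 7, 10 and 11 were lower than 6, 8 and 9. Sult1a1, a phenol sulfotransferase, changed by -0.69 ± 0.15 (adjusted p = 0.0269), a call lost without any 1 of libraries 1, 2, 4, 5, 6, 8, 9 and 10 or with no filter on low values (adjusted p up to 0.0917).

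Hepatocytes differ along the lobule, with urea synthesis and gluconeogenesis near the portal vein. Of 24 periportal genes 5 fell, Gls2, Ass1, Fbp1, Arg1 and Asl, each also a member of another list, 0 rose, and the median was -0.27. Of 24 pericentral genes 2 fell, Oat and Lhpp, 0 rose, and the median was -0.12. Lhpp, a phosphatase that acts on phosphohistidine (chromosome 7, 132610615 to 132706420), was at 32.5, 28.7, 36.02, 32.9 and 28.4 RPKM in the controls and at 11.1 to 18.6 (median 15.1) with GCGR antibody (-1.01 ± 0.11, adjusted p = 2.39e-05), with a clear gap. Both lists thus hold genes that fell, and no test set one against the other.

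**Figure D3:**
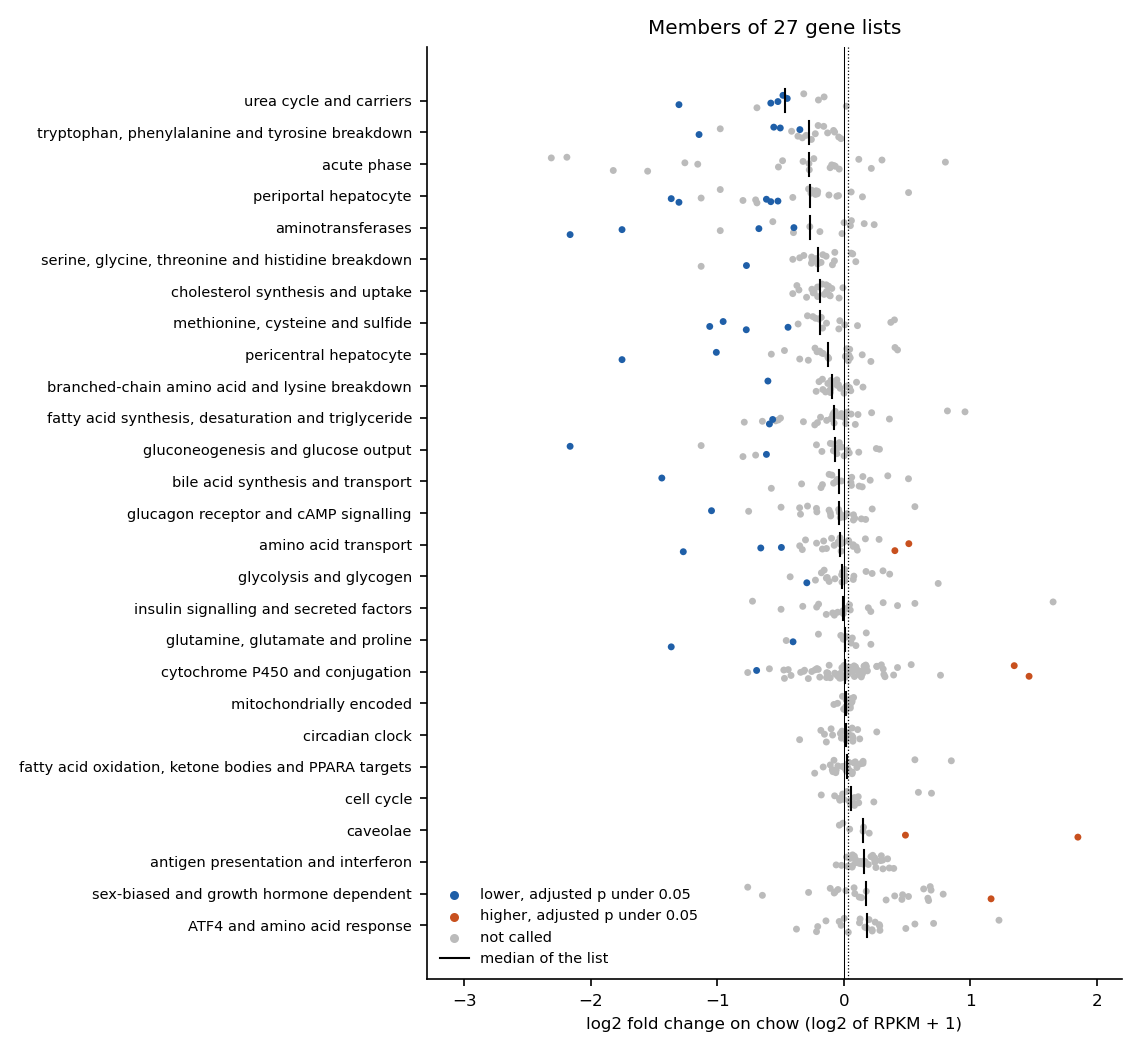
Log2 fold change on chow (horizontal axis) of every tested member of 27 gene lists (vertical axis, ordered by median); blue points fell, orange points rose, grey points were not called, the bar is the median of the list and the dotted line that of all tested genes (0.03). The urea cycle list lies lowest in median (-0.46) and the ATF4 and amino acid response list highest (0.18), the latter with 0 of 23 genes called.

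Of the 66 fallen genes 34 were in none of the 27 pathway lists. Nnmt, which methylates nicotinamide with S-adenosylmethionine, was at 51.6, 67.7, 97.2, 65.02 and 111 RPKM in the controls and at 14.7 to 51.9 (median 22.4) with GCGR antibody (-1.51 ± 0.28, adjusted p = 0.00673), where GCGR antibody library 7 just reached the lowest control. Gnpda1, a glucosamine-6-phosphate deaminase, was at 8.58, 6.18, 10.6, 7.68 and 9.91 RPKM against 3.91 to 5.48 (median 4.26) (-0.80 ± 0.10, adjusted p = 1.31e-04). Sdc1, a heparan sulfate proteoglycan that takes part in hepatic lipoprotein uptake, was at 64.05, 64.5, 69.2, 73.3 and 73.1 RPKM against 40.8 to 52.8 (median 46.2) (-0.58 ± 0.08, adjusted p = 2.08e-04). Except in Nnmt the groups lay apart. Gas2, a protein of the actin cytoskeleton, was at 20.9, 17.4, 19.8, 19.1 and 19.7 RPKM against 11.9 to 14.2 (median 12.7) (-0.54 ± 0.07, adjusted p = 1.31e-04). Fh1, the fumarase that handles the fumarate released by Asl and by tyrosine breakdown, changed by -0.48 ± 0.07 (adjusted p = 2.08e-04). Dpyd, which starts pyrimidine breakdown, changed by -0.60 ± 0.12 (0.0118; lost without library 5 (adjusted p of 0.0533)). Uox, the urate oxidase of purine breakdown, changed by -0.51 ± 0.11 (0.0215; lost without any 1 of libraries 4, 5 and 9 (adjusted p up to 0.0855)). Cyp4f15, a P450 of fatty acid and eicosanoid hydroxylation, changed by -0.46 ± 0.09 (adjusted p = 0.0107), and Nqo2, a quinone reductase, by -0.40 ± 0.08 (0.0109). Ctsl, the lysosomal protease cathepsin L, changed by -0.44 ± 0.10 (0.0255; lost without any 1 of libraries 1, 3, 4, 5, 8 and 9 (adjusted p up to 0.0877)). Lap3, a leucine aminopeptidase, changed by -0.25 ± 0.05 (0.0215; lost without any 1 of libraries 4, 5 and 9 (adjusted p up to 0.0874)). Among genes of low level, Slc13a2, a dicarboxylate carrier, was at 1.41 to 2.53 RPKM in the controls and 0.965 to 1.38 with GCGR antibody (-0.52 ± 0.08, adjusted p = 6.91e-04), a call lost with a pseudocount of 0.1 (adjusted p = 0.129). Mmd2 was at 0.554, 0.627, 1.47, 1.21 and 2.89 RPKM against 0.0924 to 0.197 (median 0.121) (-0.98 ± 0.22, adjusted p = 0.0316), so every GCGR antibody library was below the lowest control, but the call was lost without any 1 of libraries 3, 4, 5, 6, 7, 8, 9 and 10 or with no filter on low values (adjusted p up to 0.121).

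Zap70, a kinase that relays signals of the T cell receptor (chromosome 1, 36761798 to 36782821), fell, while the 7 other tested markers of T and NK cells were not called. It was at 3.86, 5.61, 5.81, 4.87 and 6.41 RPKM in the controls and at 1.57 to 2.95 (median 2.46) with GCGR antibody (-0.91 ± 0.15, adjusted p = 0.00181), without overlap. It was called in every fit that left out 1 library. The defining markers lay near 0 in all 11 libraries: Cd3e ran from 0.141 to 0.263 RPKM in the controls and from 0.258 to 0.505 with GCGR antibody, and Cd3g from 0.329 to 0.581 and from 0.236 to 0.563. The summed level of the other 22 markers, 15 of which were too low to be tested, was 5.87 to 7.18 RPKM in the controls and 6.499 to 9.55 with GCGR antibody, with overlap; with Zap70 included the sums were 9.73 to 13.1 and 8.47 to 12.4. In bulk liver fewer cells of a type and less RNA per cell cannot be told apart.

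Of the 47 risen genes 7 were in a pathway list and 40 in none, against 32 and 34 of the 66 fallen genes. Of all 11939 tested genes 553 were in a pathway list. The lists were chosen with earlier results of these data known, so these counts depend on that choice and test nothing. Mup20, the major urinary protein known as darcin, a male-biased product of mouse liver, was at 5239, 10742, 6579.8, 9040.4 and 9187 RPKM in the controls and at 12675 to 23463 (median 17660) with GCGR antibody (1.16 ± 0.24, adjusted p = 0.0139). The lowest GCGR antibody library, library 11, lay above the highest control. Mup genes are near copies of each other, so reads may be shared among them, and the call was lost without library 1 (adjusted p of 0.0505). Of the 25 sex-biased and growth hormone dependent genes Mup20 alone rose and 0 fell, with a median of 0.18. Below 0 lay 7 of the 25, against 37.0% of all tested genes.

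Wnk4, a kinase that regulates ion transport (chromosome 11, 101260537 to 101277409), had the smallest adjusted p of the risen genes: 1.13, 0.827, 0.638, 0.818 and 0.638 RPKM in the controls and 1.53 to 2.16 (median 1.93) with GCGR antibody (0.66 ± 0.09, adjusted p = 1.36e-04). Nox4, an NADPH oxidase that makes hydrogen peroxide, was at 13.2, 10.5, 13.2, 11.8 and 11.2 RPKM against 13.5 to 21.6 (median 19.4) (0.59 ± 0.12, adjusted p = 0.0118). The groups were separate in Wnk4 and in Nox4, the latter by a small margin. Nrp2, a coreceptor of semaphorins and VEGF, was at 2.76, 1.996, 2.85, 2.73 and 2.82 RPKM against 3.47 to 5.24 (median 4.74) (0.61 ± 0.12, adjusted p = 0.0138). Peg3, an imprinted zinc finger gene, was at 1.13, 1.14, 1.36, 1.28 and 1.06 RPKM against 1.48 to 3.47 (median 2.51) (0.62 ± 0.12, adjusted p = 0.0107; 0.0528 with the chow libraries fitted alone). Both rose without overlap. Gimap4, a GTPase of lymphocytes, changed by 0.42 ± 0.08 (adjusted p = 0.00962), Cpne2, a copine, by 0.54 ± 0.10 (0.0107), and Wipi1, a protein of autophagosome formation, by 0.37 ± 0.06 (0.00172). Inhba, the subunit of activin A, was at 2.72, 4.58, 2.25, 4.91 and 2.36 RPKM in the controls and at 3.88 to 17.02 (median 6.400) with GCGR antibody (0.94 ± 0.23, adjusted p = 0.0476). Library 9 stood far above the others, the groups overlapped, and the call was lost without any 1 of libraries 1, 3, 5, 6, 8, 9 and 10 or with no filter on low values or median-ratio scaling or equal summed RPKM or the chow libraries fitted alone (adjusted p up to 0.161). Atoh8, a transcription factor, was at 1.93 to 5.53 RPKM against 4.12 to 9.71 (0.85 ± 0.20, adjusted p = 0.0356; lost without any 1 of libraries 2, 3, 4, 5, 6, 7, 8 and 10 or with no filter on low values or the chow libraries fitted alone (adjusted p up to 0.119)). Rarres1, a gene induced by retinoic acid, was at 28.7, 27.4, 32.99, 41.7 and 45.1 RPKM against 47.5 to 101 (median 72.2) (0.97 ± 0.23, adjusted p = 0.0435). No library of 1 group reached the other, yet the call was lost without any 1 of libraries 1, 2, 3, 4, 5, 6, 7, 8, 9 and 10 or with no filter on low values or equal summed RPKM (adjusted p up to 0.128).

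Caveolae are small pits of the plasma membrane built by caveolins. Of 8 tested genes of the list Cav1 and Cav2 rose and 0 fell. Cav1 (chromosome 6, 17306335 to 17341328) was at 1.39, 1.67, 1.27, 2.23 and 2.12 RPKM in the controls and at 5.91 to 13.1 (median 8.27) with GCGR antibody (1.85 ± 0.41, adjusted p = 0.0269). All 6 GCGR antibody libraries were over 2-fold above all 5 controls, but the call was lost without any 1 of libraries 1, 2, 3, 4, 5, 8, 9 and 10 or with no filter on low values (adjusted p up to 0.0743). Cav2, its partner in caveolae, was at 1.08, 0.723, 1.11, 1.06 and 1.12 RPKM against 1.43 to 2.52 (median 1.71) (0.49 ± 0.10, adjusted p = 0.0146; lost without library 2 or with the chow libraries fitted alone (adjusted p up to 0.0528)). Fabp5, a fatty acid binding protein that is also found in fat and macrophages, was at 8.56, 18.5, 15.2, 35.3 and 14.5 RPKM in the controls and at 21.9 to 83.9 (median 53.8) with GCGR antibody (1.52 ± 0.33, adjusted p = 0.0226). Its groups overlapped through library 11 and control 4, and the call was lost without any 1 of libraries 1, 3, 5, 6, 8 and 10 or with no filter on low values or the chow libraries fitted alone (adjusted p up to 0.0804). Tpm2, a tropomyosin of muscle, was at 2.52, 3.33, 1.41, 4.04 and 2.36 RPKM against 3.88 to 12.97 (median 6.01) (1.03 ± 0.22, adjusted p = 0.0218). Library 11, which carries muscle transcripts, was far above the rest. Without it Tpm2 was still called; its call was lost without any 1 of libraries 1, 3, 5 and 8 or with the chow libraries fitted alone (adjusted p up to 0.0823).

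Summed markers of several other cell types are given beside these risen genes. The caveolae list summed to 39.5 to 43.8 RPKM in the controls and 45.1 to 54.5 with GCGR antibody, but to 36.3 to 40.6 and 35.95 to 41.4 without Cav1 and Cav2. The 20 stellate cell and matrix markers summed to 137 to 145 RPKM against 151 to 165, led by Dcn (57.3 to 63.5 against 63.4 to 69.4). The 7 adipose markers summed to 11.8 to 16.5 against 17.97 to 45.7, where Cfd ran from 0.702 to 2.36 RPKM in the controls and from 1.70 to 32.3 with GCGR antibody (adjusted p = 0.0752). Fabp4 (5.56 to 10.8 against 8.19 to 15.9) and Adrb3 (3.21 to 3.99 against 3.86 to 6.04) overlapped between the groups, as did Cfd. The defining fat genes Adipoq, Plin1 and Lep were at or near 0 in all 11 libraries, at most 0.642 RPKM for Adipoq. The 8 bile duct markers summed to 10.5 to 17.7 against 16.6 to 42.8, led by Spp1, and the 24 macrophage markers to 119.9 to 219.9 against 199.8 to 300.3. Spp1 is in both lists; without it the sums were 2.83 to 3.89 against 3.13 to 5.35 for bile duct and 112.3 to 205.4 against 183.2 to 261.4 for macrophages, and both overlapped between the groups. The 20 endothelial markers summed to 86.4 to 121 against 98.4 to 134. No gene of these 5 cell marker lists was called with limma. At its unadjusted p under 0.05, 2 of 19 matrix, 2 of 3 adipose and 2 of 4 bile duct markers tested were higher. So were 2 of 20 macrophage and 1 of 20 endothelial markers, and 838 of all 11939 tested genes. Of 4 B cell, 3 neutrophil, 6 red blood cell, 1 pancreas and 2 muscle markers tested 0 was called (1, 0, 0, 0 and 1 higher unadjusted). Their part in the changes of Cav1, Cav2, Fabp5, Nrp2 and Nox4 was not tested.

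A few more risen genes are named here after their values were seen. Sec11a and Sec11c, subunits of the signal peptidase, changed by 0.29 ± 0.07 and 0.35 ± 0.08 (adjusted p = 0.0446 and 0.0417), and Ero1lb, an oxidase of the endoplasmic reticulum, by 0.65 ± 0.15 (0.0261). All 3 calls were fragile: Sec11a was lost without any 1 of libraries 1, 2, 3, 4, 6, 7, 8 and 9 or with no filter on low values or median-ratio scaling or equal summed RPKM or the chow libraries fitted alone (adjusted p up to 0.128), Sec11c without any 1 of libraries 1, 2, 3, 4, 5, 6, 7, 8 and 10 or with no filter on low values or median-ratio scaling or equal summed RPKM (adjusted p up to 0.126), and Ero1lb without any 1 of libraries 1, 4, 5, 6, 7, 8 and 9 or with no filter on low values or equal summed RPKM or the chow libraries fitted alone (adjusted p up to 0.0924). Idua, a lysosomal iduronidase, was at 0.983, 1.08, 1.12, 1.08 and 1.09 RPKM in the controls and at 1.38 to 1.86 (median 1.71) with GCGR antibody (0.34 ± 0.06, adjusted p = 0.00362), which held in every fit that left out 1 library. Among transcripts near 0 in the controls was Mir686, a microRNA gene, at 1.02 to 19.99 RPKM with GCGR antibody. Its control values reached 0.370 in library 3 and were 0 or below any whole read in the other 4, values that arise where reads are shared between genes by weights, so its call (3.06 ± 0.73, adjusted p = 0.0409) is uncertain.

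**Figure D4:**
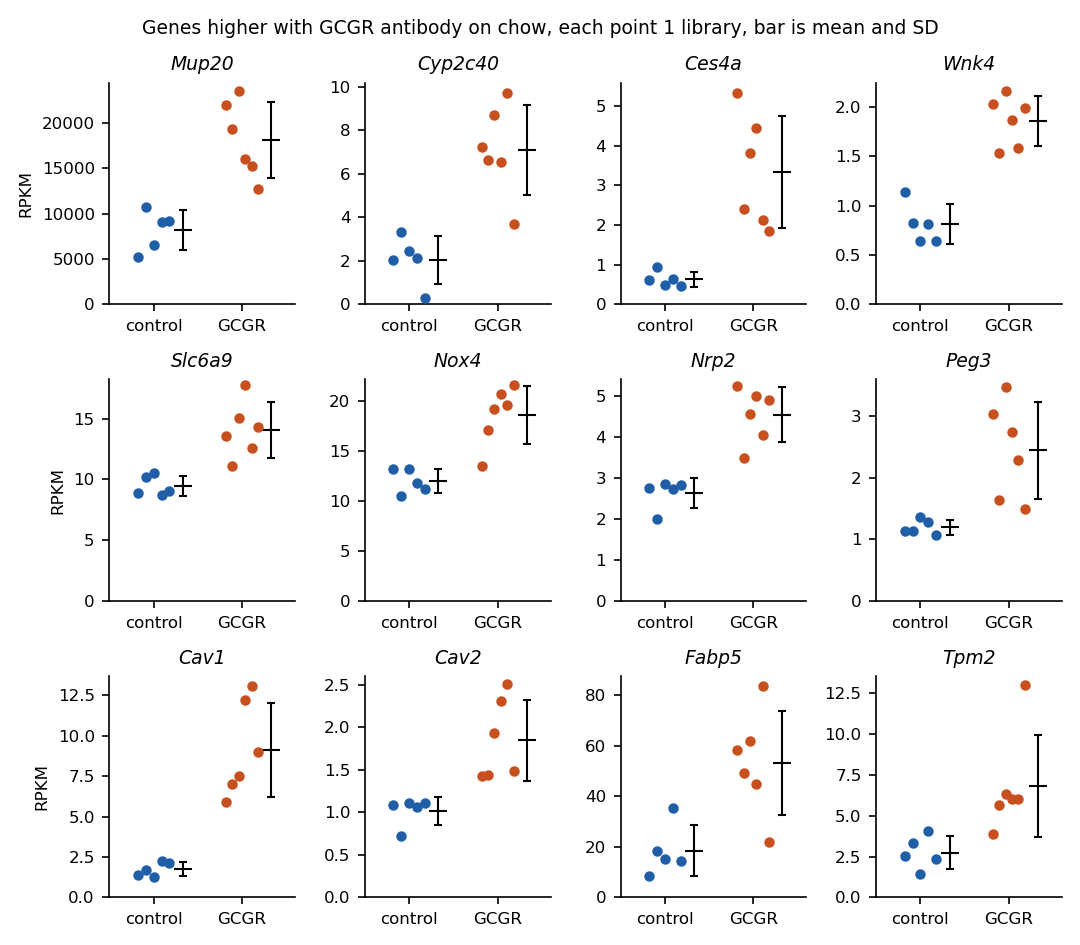
RPKM (vertical axis, from 0) of 12 genes that rose, in each control (blue) and GCGR antibody (orange) library on chow; the bar beside each group is the mean ± SD (n = 5 and 6). Mup20 averaged 8158 ± 2209 and 18120 ± 4184 RPKM and Cav1 1.74 ± 0.429 and 9.12 ± 2.92; among the 12, Fabp5 and Tpm2 have GCGR antibody libraries inside the control range.

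Other responses known from the liver showed no calls. Of 23 genes of ATF4 and the amino acid response 0 was called with limma (2 higher and 1 lower at an unadjusted p under 0.05), with a median of 0.18. Eif4ebp3, a repressor of translation initiation in that list, was at 10.9, 15.1, 15.9, 12.8 and 16.2 RPKM in the controls and at 16.9 to 47.3 (median 37.9) with GCGR antibody, without overlap, and did not pass (1.23 ± 0.31, adjusted p = 0.0629), though it did without library 9 (0.02997) and with the chow libraries fitted alone (0.01699). Of 33 antigen presentation and interferon genes 0 was called (3 higher unadjusted), and their median was 0.16. Of these 33, 2 alone lay below 0 (5 after median-ratio scaling), against 37.0% (49.1%) of all tested genes. Of 20 genes of insulin signalling and secreted factors 0 was called (2 higher and 3 lower unadjusted). Fgf21, a hormone of the fasted liver, was at 0.0635 to 3.54 RPKM against 0.255 to 3.11 (adjusted p = 0.619), and Igfbp1, which binds insulin-like growth factors, at 6.62 to 87.4 against 6.95 to 66.4 (0.877), both with a wide spread in each group. The 21 acute phase genes (1 higher and 6 lower unadjusted, median -0.27), 19 circadian clock genes (0 and 0, median 0.02), 17 cell cycle genes (1 and 1, median 0.05) and 13 mitochondrially encoded genes (0 and 0, median 0.02) held 0 calls each.

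The same antibodies on HFD give a comparison that shares no library with that on chow. Both effects were tested with 1 estimate of the spread per gene from all 23 libraries, so the calls on the 2 diets are not fully independent. On HFD 253 genes fell (2.12%) and 636 rose (5.33%), 889 in all (7.45%). The balance of directions depended on the scaling: the share of higher genes among the HFD calls was 71.5%, but 45.6% after median-ratio scaling (397 rose and 474 fell) and 69.8% with equal summed RPKM (459 and 199). Of the 66 genes that fell on chow 41 (62.1%) also fell on HFD, 65 had the same sign and 0 rose there, with a median log2 fold change of -0.54 on chow and -0.39 on HFD. Of the 47 that rose on chow 19 (40.4%) also rose on HFD, 41 had the same sign and 0 fell, with medians of 0.51 and 0.24. In the other direction, 16.2% of the genes that fell on HFD and 2.99% of those that rose were called the same way on chow. Got1 changed by -2.09 ± 0.16 on HFD (adjusted p = 2.23e-08), close to its chow value, as did Oat (-1.72 ± 0.18, 2.65e-06), Ass1 (-1.20 ± 0.14, 1.11e-05) and Sdsl (-0.80 ± 0.12, 2.86e-04). Zap70 changed by -1.07 ± 0.14 (4.78e-05), Nox4 by 0.76 ± 0.11 (1.17e-04) and Cav1 by 1.40 ± 0.40 (0.0331). Of the 113 amino acid breakdown genes 25 fell and 3 rose on HFD, with a median of -0.07.

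The difference between the effects on the diets was itself called in 24 of 11939 genes (0.201%), of which 5 were also called on chow. This count moved between 5 (without library 5 or 8) and 37 (without library 11). Mat1a was at 883 ± 66.4 RPKM with control antibody and 822 ± 83.2 with GCGR antibody on HFD, a change of -0.11 ± 0.10 against -0.77 ± 0.10 on chow (difference 0.67 ± 0.14, adjusted p = 0.0439). Cbs and Gas2 fell further on HFD, Cbs by -1.08 ± 0.08 against -0.44 ± 0.09 (difference -0.63 ± 0.12, adjusted p = 0.0343) and Gas2 by -1.07 ± 0.07 against -0.54 ± 0.07 (-0.53 ± 0.10, 0.0278). Hspb6, a small heat shock protein, and Pcolce2, which binds procollagen, rose on chow (0.43 ± 0.09 and 0.34 ± 0.08) and were at -0.18 ± 0.09 and -0.24 ± 0.08 on HFD (differences -0.62 ± 0.12 and -0.58 ± 0.11, adjusted p = 0.0381 and 0.0343). The chow call of Hspb6 was lost without any 1 of libraries 3 and 5 (adjusted p up to 0.0642), and that of Pcolce2 without any 1 of libraries 1, 2, 4, 5, 6, 7, 8 and 10 or with a pseudocount of 0.1 or median-ratio scaling or equal summed RPKM or the chow libraries fitted alone (adjusted p up to 0.119). The difference itself was lost for Mat1a and for Cbs without any 1 of libraries 1 and 3 to 10 (adjusted p up to 0.127 and 0.0889), for Gas2 without 5, 8, 9 or 10 (up to 0.0572), for Hspb6 without 1, 3 or 5 to 10 (up to 0.112), and for Pcolce2 without 1, 4 to 8 or 10 (up to 0.0754). Equal summed RPKM also ended all 5, with Gas2 then at 0.0997. Having no filter on low values ended the difference for Mat1a, Cbs and Hspb6, and median-ratio scaling ended that for Mat1a. The remaining 19 were not called on chow. They include Cyp3a11, a P450 of drug and steroid oxidation, at 2989 to 4577 RPKM in the chow controls and 2957 to 4409.9 with GCGR antibody on chow (difference 1.73 ± 0.20, adjusted p = 2.10e-04), called in every fit that left out 1 chow library. Cyp17a1, a steroid hydroxylase, was at 0.969, 1.13, 2.53, 1.02 and 1.83 RPKM in the chow controls and at 0.143 to 0.591 (median 0.488) with GCGR antibody. Its chow groups did not overlap but did not pass (-0.76 ± 0.26, adjusted p = 0.252; 0.0429 with a pseudocount of 0.1 and 0.0272 with the chow libraries fitted alone), against -3.11 ± 0.25 on HFD (difference -2.35 ± 0.36, adjusted p = 0.005404). For genes such as Cyp2c40 (1.47 ± 0.27 and -0.10 ± 0.25), Slco1a4 (-1.44 ± 0.31 and 0.41 ± 0.30) and Cth (-1.06 ± 0.14 and -0.37 ± 0.13), called on chow and not on HFD, the difference did not pass (adjusted p = 0.0898, 0.08403 and 0.184).

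**Figure D5:**
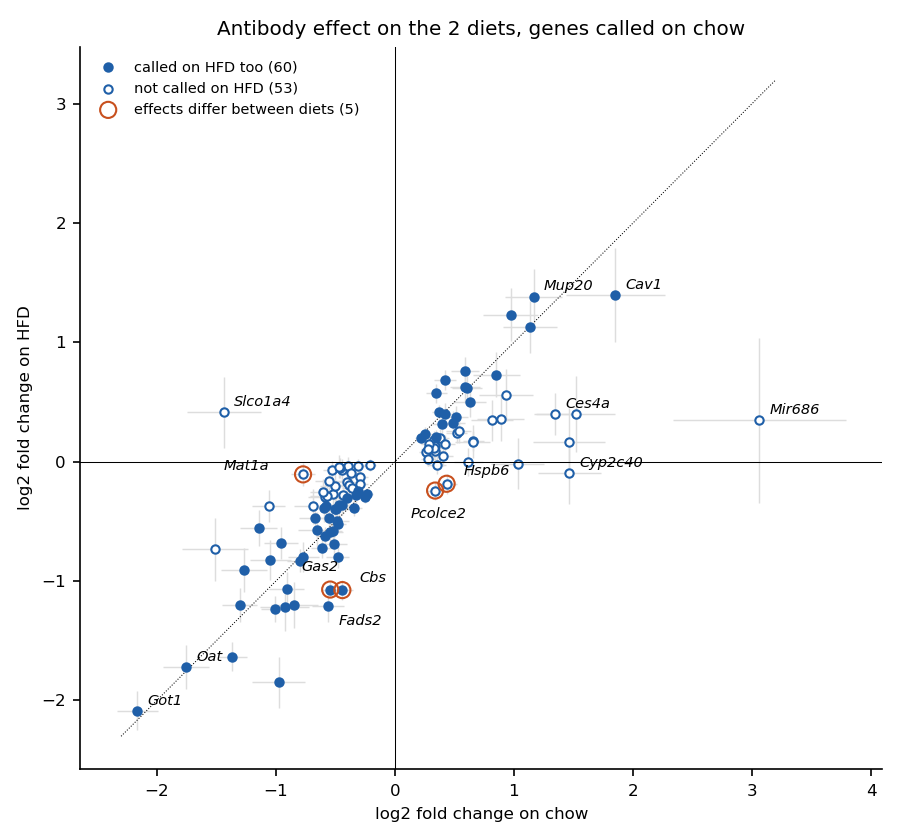
Log2 fold change with GCGR antibody on chow (horizontal axis) and on HFD (vertical axis) of the 113 genes called on chow, with bars of 1 SE; filled points were also called on HFD, open points were not, orange rings mark the 5 genes whose effects differ between the diets, and the dotted line marks equal effects. Got1 and Oat lie close to the line, and Slco1a4 is the one fallen gene above 0 on HFD.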

How the data were processed

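Strand-specific mRNA libraries of liver were read as single reads of 33 cycles, per the labels' protocols. The submitters' processing notes name bcl2fastq 2.17, FastQC and GRCm38. The aligner, counter, annotation and strand setting behind the values were "not given in the sources used here". What the authors deposited is a single table of RPKM for 24475 genes, with an Entrez ID and a symbol for each, and 1 column per library. Columns were matched to samples by the number in the sample title, which also gave the group. Since RPKM is not a count, linear models on the log scale were used.

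The test was limma 3.58.1 (R 4.3.3) on log2(RPKM + 1) for genes of at least 0.5 RPKM in at least 5 of the 23 libraries. All 23 libraries entered a fit of 4 group means, with moderated two-sided statistics, a mean-variance trend and Benjamini-Hochberg adjustment over 11939 genes. Contrasts were the antibody effect on chow, that on HFD, and their difference. Lists were described by counts and medians, without set tests. Python 3.11.15, pandas 2.3.3 and matplotlib 3.10.9 made summaries and plots. The comparison, the 27 pathway lists and the 12 lists of cell markers were chosen with earlier results of these data known.

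Genes were named by a rule. It takes, among called genes whose groups do not overlap and whose higher group reaches 1 RPKM, the 15 that rose most and the 15 that fell most, leaving out predicted genes. Also named are the 3 members of each pathway list with the smallest adjusted p, a set of receptor, transaminase and glucose genes, and the 8 genes with the smallest adjusted p for the difference between diets. Other called genes could be named with their values, and a few results that the rule would name are not reported here. Positions and promoters come from RefSeq tables of GRCm38.p6, in which 24375 of the gene IDs were found. Genes with near-identical copies (Mup, Cyp2c and Mir686 among those named) are uncertain, since their values point to reads shared by weights. Alternatives were a pseudocount of 0.1, no filter and a stricter one, 2 scalings, the chow libraries alone, no trend, an exact rank-sum test, and leaving out each chow library. A filter on the 11 chow libraries was added after seeing the data.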

Additional observations from a re-analysis of the deposited data

Results flagged for a closer look

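In 32 of 340 groups of 5 or 6 libraries examined, the highest or lowest library lay farther from its nearest neighbour than Dixon's limit for that group size allows. Chance flags about 1 in 20 groups, and genes measured in the same library are not independent. Library 11 accounts for 8 of them and libraries 1, 3, 4 and 5 for 4 each.

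Among the controls, library 5 stood high in Ass1 (2500 RPKM), Gls2 (179.4), Gpt2 (125.6) and Sec11a (32.2). Library 4 stood high in Akt1 (17.01), Gm38416 (2.57), Ncald (5.74) and Slc25a22 (74.8). Library 3 stood high in Mt1 (413.9), Nxpe2 (6.58) and Mir686 (0.370), and low in Got2 (182.6). Library 1 stood high in Fdps (446), Fgf21 (3.54) and Gcgr (117), and low in Idua (0.983). Library 2 stood low in Cav2 (0.723) and Nrp2 (1.996).

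Among the GCGR antibody libraries, library 11 stood high in Gckr (56.6), Mt1 (45.01), Pcna (15.1), Per1 (3.45), Slc38a3 (466.6), Sult1a1 (105.6) and Tpm2 (12.97), and low in Fam25c (35.2). Library 6 stood high in Mmd2 (0.197) and Sdsl (4.75), library 7 low in Akt1 (15.96) and high in Igfbp1 (66.4), library 9 high in Inhba (17.02), and library 10 high in Pstpip2 (6.99).

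The antibody effect on HFD differed from that on chow by limma's test of the difference in 10 of the genes named here or called on chow. On the log2 scale, HFD effect minus chow effect, the difference was 1.73 for Cyp3a11, 0.93 for Gypc, 0.86 for Odf3b and 0.67 for Mat1a. It was -2.35 for Cyp17a1, -1.29 for Fam25c, -0.63 for Cbs, -0.62 for Hspb6, -0.58 for Pcolce2 and -0.53 for Gas2. Of these, Cyp3a11, Fam25c and Odf3b stayed under an adjusted p of 0.05 in every fit that gave the contrast, and Cyp17a1 in all but that with a pseudocount of 0.1 (0.0925).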

How the results depend on the processing

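Counts on chow were 47 higher and 66 lower. With equal summed RPKM 31 were higher and 76 lower, and with median-ratio scaling 40 and 79. With no filter 40 were higher and 54 lower, and with the chow libraries fitted alone 65 and 74. The exact rank-sum test called 0 higher and 0 lower, with 1092 genes at an unadjusted p under 0.05. Its smallest p for 5 against 6 libraries is 0.00433, reached where the groups do not overlap. Such genes, 179 higher and 119 lower, were too few for that p to pass the adjustment over 11939 genes. Its count of 0 therefore says nothing of the single calls. Leaving out 1 library gave 21 to 59 higher genes and 35 to 74 lower ones. The count of higher genes was lowest without library 8 and that of lower genes without library 5 (35), and both were highest without library 11. The 24 genes whose effects differed between the diets became 8 with no filter and 6 with equal summed RPKM, and 5 to 37 on leaving out 1 library. The total of 889 calls on HFD kept within 1.5 times under every alternative run, but median-ratio scaling turned its balance from 636 higher and 253 lower to 397 and 474. Only chow libraries were left out, so the HFD fold changes could not move in those fits. How far the HFD calls depend on single HFD libraries was not tested. No called gene changed direction. Uncalled genes were examined for a change of sign only where the naming rule took them up, not over all tested genes. Of these uncalled named genes, 7 took both signs over the fits that left out 1 library: COX1 (-0.0109 to 0.1215, below 0 without library 3), Cyp3a11 (-0.1427 to 0.0109, above 0 without 4 or 5), Fam25c (-0.0673 to 0.0621, above 0 without 2 or 11), Igfbp1 (-0.9255 to 0.0144, above 0 without 1), ND5 (-0.1163 to 0.0055, above 0 without 2), Nfil3 (-0.0243 to 0.547, below 0 without 5) and Odf3b (-0.1253 to 0.0037, above 0 without 9). The cause of these shifts was not tested. No paired analysis was possible because the groups share no replicate number. Absolute depth is unknown, which limits what can be said of genes near 0.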
